A study of Mus musculus with 2 samples.

Results

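Among the peaks of accessible chromatin in skin whose epithelial cells had lost the histone acetyltransferase MOF, 12428 were strong, far from any gene start and without a counterpart in the Control peak list. They were 3.65% of the 340134 peaks called in the MOF cKO library. A peak was taken when it overlapped no Control peak by 1 bp, lay more than 2000 bp from every annotated transcription start site (TSS), and held at least 500 transposition cuts summed over all MOF cKO cells. The peaks were thus chosen by their cut counts in the MOF cKO library and by the peak calls of both libraries, so that their strength and their absence from the Control list are no finding. They made up 11.8% of the 105411 distal peaks called in MOF cKO alone, and 12.7% of all distal peaks with 500 or more cuts.

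The study profiled back skin of E16.5 mouse embryos by single-cell ATAC-seq, with 1 library labelled Control and 1 labelled MOFfl/fl/K14Cre (MOF cKO). In the latter, Cre driven by the Krt14 promoter deletes the floxed Mof gene (Kat8) in epithelial cells, while dermal, vascular and immune cells are not its targets. Controls were littermates per the study's text, and the labels give no further genotype for them. Cells of both groups came from collagenase and trypsin treatment, and K14-H2BGFP-positive epithelial and GFP-negative cells were sorted and put together again, at 5 parts to 1 part by the labels. The study's text gives other ratios, so the mix is uncertain, and it sets the epithelial share of all cuts. Control had 2541 barcodes, 249679 peaks and 169641002 cuts in them, and MOF cKO had 4348 barcodes and 324310197 cuts, 1.91 times as many. The libraries shared 21 cell barcodes. With 1 library per genotype no difference was tested, and the 95% intervals below are exact Poisson intervals that cover counting error only. Each matrix counts cuts only in its own peaks, so the Control level at these 12428 regions has no value, and a region that is closed in Control and one that is open below the calling threshold cannot be told apart.

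In ATAC-seq a transposase cuts DNA where nucleosomes leave it exposed, and cuts far from gene starts mark enhancers, the elements through which transcription factors set the activity of nearby genes. AP-1 is a dimer of FOS and JUN family proteins that binds the motif TGANTCA (N is any base). It occupies many enhancers of keratinocytes, and is induced in skin by growth signals, stress and wounding. PU.1 does similar work in macrophages and other myeloid cells. MOF acetylates lysine 16 of histone H4, a mark found over active chromatin.

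The centres of 7 of the peaks are given as examples, taken from the peaks with most cuts and from those with the largest share of cuts in one cell class. Of the 19 peaks named under these rules 9 hold a TGANTCA match in their central 300 bp, and of the 7 examples 4 do. The sequences are the central 300 bp of each peak on the plus strand of GRCm38, with each match in capitals. The first, chr6:128839254-128839553, is intergenic, 12611 bp from the start of Klrb1b, has the most cuts and holds no match. The second, chr8:54419642-54419941, is intergenic and 109343 bp from the start of Asb5. The third, chr2:21299717-21300016, is intergenic and 67197 bp from the start of Gpr158. The fourth, chr3:95663948-95664247, is intergenic and 4780 bp from the start of Mcl1. The fifth, chr14:11321408-11321707, lies in an intron of Gm3839 and was cut almost wholly in epithelial-like cells. The sixth, chr8:11464016-11464315, lies in an intron of Rab20, was mainly cut in immune-like cells and holds no match in this window. The seventh, chr8:11099219-11099518, is intergenic, 90582 bp from the start of Irs2, was mainly cut in fibroblast-like cells and holds no match.
Klrb1b peak: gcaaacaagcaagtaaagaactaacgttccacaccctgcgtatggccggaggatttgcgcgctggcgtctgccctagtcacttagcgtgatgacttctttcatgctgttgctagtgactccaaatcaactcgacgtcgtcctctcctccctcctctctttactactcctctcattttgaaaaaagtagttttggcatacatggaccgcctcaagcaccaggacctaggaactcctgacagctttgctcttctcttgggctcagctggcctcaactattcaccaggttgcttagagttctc
Asb5 peak: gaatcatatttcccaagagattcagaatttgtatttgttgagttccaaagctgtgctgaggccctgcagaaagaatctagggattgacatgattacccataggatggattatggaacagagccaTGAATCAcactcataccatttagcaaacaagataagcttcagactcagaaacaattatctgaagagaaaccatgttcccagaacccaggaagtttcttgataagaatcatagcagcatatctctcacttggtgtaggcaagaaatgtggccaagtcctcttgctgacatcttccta
Gpr158 peak: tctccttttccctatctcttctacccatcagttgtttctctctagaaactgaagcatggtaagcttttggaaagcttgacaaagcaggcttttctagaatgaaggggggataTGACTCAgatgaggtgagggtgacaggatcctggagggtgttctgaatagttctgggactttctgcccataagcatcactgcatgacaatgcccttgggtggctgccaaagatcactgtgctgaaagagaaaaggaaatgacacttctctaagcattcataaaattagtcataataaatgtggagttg
Mcl1 peak: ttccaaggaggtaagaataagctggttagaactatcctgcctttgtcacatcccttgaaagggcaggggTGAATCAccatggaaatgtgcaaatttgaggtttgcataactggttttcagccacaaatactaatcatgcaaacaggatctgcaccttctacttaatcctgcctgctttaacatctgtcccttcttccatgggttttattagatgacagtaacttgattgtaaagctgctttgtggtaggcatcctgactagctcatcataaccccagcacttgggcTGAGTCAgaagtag
Gm3839 peak: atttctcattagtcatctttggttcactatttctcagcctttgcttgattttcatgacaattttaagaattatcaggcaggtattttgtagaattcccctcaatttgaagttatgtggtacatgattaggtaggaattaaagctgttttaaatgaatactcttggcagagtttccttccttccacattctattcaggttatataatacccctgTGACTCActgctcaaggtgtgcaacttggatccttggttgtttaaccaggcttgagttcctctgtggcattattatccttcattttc
Rab20 peak: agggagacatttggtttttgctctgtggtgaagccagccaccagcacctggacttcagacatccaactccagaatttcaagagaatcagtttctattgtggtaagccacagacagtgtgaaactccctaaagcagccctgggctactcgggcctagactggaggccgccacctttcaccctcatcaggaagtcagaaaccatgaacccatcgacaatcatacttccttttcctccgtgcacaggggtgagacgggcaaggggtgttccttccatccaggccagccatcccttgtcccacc
Irs2 peak: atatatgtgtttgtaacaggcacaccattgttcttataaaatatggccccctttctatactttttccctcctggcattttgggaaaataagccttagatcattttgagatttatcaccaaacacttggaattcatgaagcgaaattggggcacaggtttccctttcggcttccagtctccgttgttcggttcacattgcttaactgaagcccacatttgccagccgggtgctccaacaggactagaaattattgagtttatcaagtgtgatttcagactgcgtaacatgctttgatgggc

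The peaks held from 500 to 5938 cuts with a median of 726 (quartiles 587 and 999). Among them 3106 had at least 1000 cuts and 395 had at least 2000. Together they took 3.36% of the cuts in the MOF cKO library. Their median width of 893 bp was close to the 894 bp of the 85746 distal peaks with 500 or more cuts that overlapped a Control peak, called shared peaks here and used as the main comparison. Shared peaks were stronger, with a median of 1081 cuts. The cuts came from many cells. A peak was cut in 161 to 2097 of the 4348 cells (median 314), and the cell that gave most gave a median of 1.01% of a peak's cuts and never more than 3.71%. Just inside the threshold, the peaks nearest to Nxpe4, Cadm1 and March1 had 500 cuts each, and just outside it 2 peaks in Thsd7b and 1 near Tmem26 had 499.

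Cells were classed by accessibility of regions with a peak in both libraries, which hold none of the 12428 peaks, and classes were named from promoters of marker genes. MOF cKO held 2575 epithelial-like, 1249 fibroblast-like, 280 immune-like, 98 endothelial-like and 71 mural-like cells. A further 55 cells formed cluster 13, where 3 of 8 measured melanocyte markers stood out. It is left unnamed because its leading genes, Gjc3, Car6, Dct and Sh3tc2, mix genes of pigment cells and glia. Control held 1695 epithelial-like, 665 fibroblast-like, 46 immune-like and 10 endothelial-like cells. Levels are given as CPM, the cuts in a peak per 1000000 cuts that the class had in regions with a peak in both libraries.

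Epithelial-like cells had the highest level at 8401 of 12428 peaks (67.6%), against 46.6% of shared peaks, which passed the same minimum. The minimum itself favours peaks open in epithelial-like cells, which gave most of the cuts summed, and the values in this paragraph are a description of the set. The median level was 3.16 CPM in epithelial-like cells (quartiles 2.52 and 4.45) and 0.484 CPM in fibroblast-like cells. Epithelial-like cells gave a median of 93.7% of the cuts of a peak, although they gave 72.4% of all cuts in the library and a median of 83.8% at shared peaks. The level was at least 2-fold higher in epithelial-like than in fibroblast-like cells at 10448 peaks (84.1%), against 47.8% of all MOF cKO peaks with 20 or more cuts and 53.01% of shared peaks. It was at least 2-fold higher in fibroblast-like cells at 420 peaks (3.38%), against 19.3% of all peaks and 18.8% of shared peaks. The median ratio of epithelial-like to fibroblast-like level was 7.60 here and 2.39 at shared peaks. At 4973 peaks (40.0%) the ratio was at least 10, against 24.7% of shared peaks and 13.7% of all MOF cKO peaks with 20 or more cuts. No cut in any fibroblast-like cell was found at 26 of the 12428 peaks and 20 of the 85746 shared peaks. In the weaker MOF cKO-only distal peaks, below the minimum, epithelial-like cells led at 36.6%, 55.9% were at least 2-fold above fibroblast-like cells and the median ratio was 2.38, close to that of shared peaks.

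Cell classes other than epithelium led at the remaining peaks. Immune-like cells had the highest level at 1638 peaks (13.2%; 10.5% of shared peaks), endothelial-like cells at 976 (7.85%; 6.76%), mural-like cells at 637 (5.13%; 9.51%), cluster 13 at 420 (3.38%; 9.82%) and fibroblast-like cells at 356 (2.86%; 16.7%). With mean cuts per cell, not scaled to depth, immune-like cells led at 8.09% of the peaks. In small classes a few cuts decide the order. The endothelial-like class also depended on the clustering, with 98 MOF cKO cells here and 27 in a finer clustering. Most of its cells were classed otherwise there, by the class sizes as epithelial-like. The finer clustering had an epithelial-like cluster of 121 MOF cKO cells and no Control cells, with a median of 19341 cuts. Values of the endothelial-like class are thus uncertain, and the part of epithelial cells in them was not tested. When the interval of the leading class had to lie above those of all others, 1238 peaks (9.96%) were led by epithelial-like cells and 839 (6.75%) by immune-like cells, while fibroblast-like cells led at 61. The same counts were not computed for shared peaks, so they are not shown to be particular to the set. Control had 46 immune-like cells against 280 in MOF cKO, and how far these cell numbers set the immune share was not tested.

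**Figure D1:**
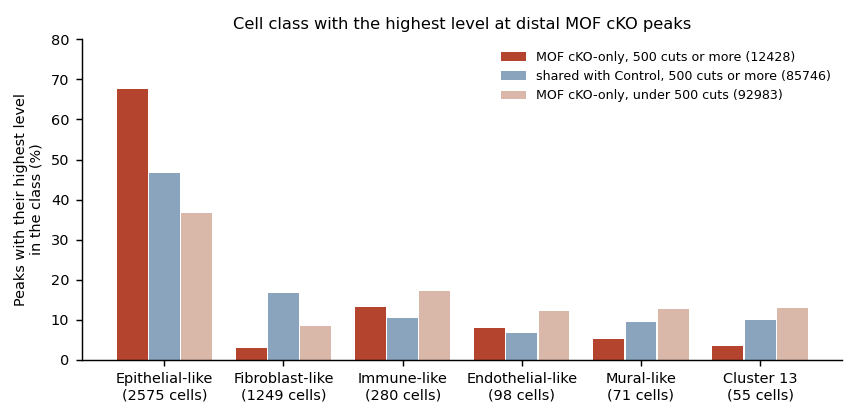
Bars give the percent of distal MOF cKO peaks (vertical axis) whose level in CPM was highest in each cell class, for MOF cKO-only peaks with 500 or more cuts, shared peaks with 500 or more cuts and MOF cKO-only peaks with fewer cuts. Epithelial-like cells led at 67.6% of the first set and 46.6% of the second, and fibroblast-like cells at 2.86% and 16.7%; the third set differs from the first by the minimum of cuts itself.

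The peak with most cuts, chr6:128838942-128839865, is intergenic and 12611 bp from the start of Klrb1b, a lectin-like receptor gene of natural killer cells. It had 5938 cuts and was open in every class, at 18.6 CPM in epithelial-like cells (17.8–19.5), 24.3 in fibroblast-like cells (22.6–26.1) and 35.1 in immune-like cells. The peak nearest to Olfr1423, an olfactory receptor gene, was likewise open in all classes and lay 74 bp from a Control peak (4966 cuts, 15.8 CPM in the epithelial-like class and 21.4 CPM in the fibroblast-like class). Neither holds an AP-1 site in its central 500 bp, unlike the other 8 of the 10 peaks with most cuts.

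Those at Ephb2, Rnf122, Asb5, Ednra and Gpr158 were highest in epithelial-like cells. The Ephb2 peak, in an intron of this ephrin receptor gene, had 4862 cuts, 22.7 CPM in epithelial-like cells (21.8–23.6) and 1.90 in fibroblast-like cells (1.45–2.46), and it lay 20 bp from a Control peak. The Asb5 peak lay 36796 bp from the nearest Control peak and had 21.1 CPM in epithelial-like cells (20.2–22.0), 1.92 in fibroblast-like cells and 0.829 in immune-like cells (0.226–2.12). The Gpr158 peak had 18.5 CPM in epithelial-like cells (17.7–19.4) against 1.02 in fibroblast-like and 0.207 in immune-like cells. Endothelial-like cells had 17.7 CPM at the Ephb2 peak (11.9–25.4) and 14.7 at the Rnf122 peak (9.39–21.8). Both intervals overlapped those of epithelial-like cells, and the make-up of the endothelial-like class is uncertain. The endothelial-like level was 11.9 CPM at Asb5, 8.55 at Gpr158 and 6.41 at Ednra, and mural-like cells had 7.45 CPM at Asb5. Epithelial-like and fibroblast-like intervals did not overlap at any of these 5 peaks. The difference was smaller at the peak near Ednra, which encodes an endothelin receptor (16.9 against 7.68 CPM).

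At the peak in B4galt1, which encodes a galactosyltransferase, epithelial-like and immune-like levels were both high (17.6 and 23.7 CPM) and the fibroblast-like level was low (1.47 CPM). The peak near Mcl1, an anti-apoptotic gene of the BCL2 family, was open in all 3 classes at 14.2, 12.9 and 19.8 CPM. At the extremes, the peak in Gm3839 had 99.7% of its 1025 cuts in epithelial-like cells, that nearest to Tusc1 99.6% and that nearest to Slitrk2 99.5%. Immune-like cells gave 71.1% of the cuts of a peak in an intron of Rab20, a small GTPase gene, with 101.3 CPM (92.5–111) against 1.26 in epithelial-like cells. They gave 69.7% at a peak near Lfng, which encodes a Notch-modifying enzyme, and 53.7% at that near Letmd1. Fibroblast-like cells gave 83.7% of the cuts near Irs2, an insulin signalling adaptor gene, with 15.7 CPM (14.3–17.2) against 0.683 in epithelial-like cells. That peak lay 17 bp from a Control peak.

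**Figure D2:**
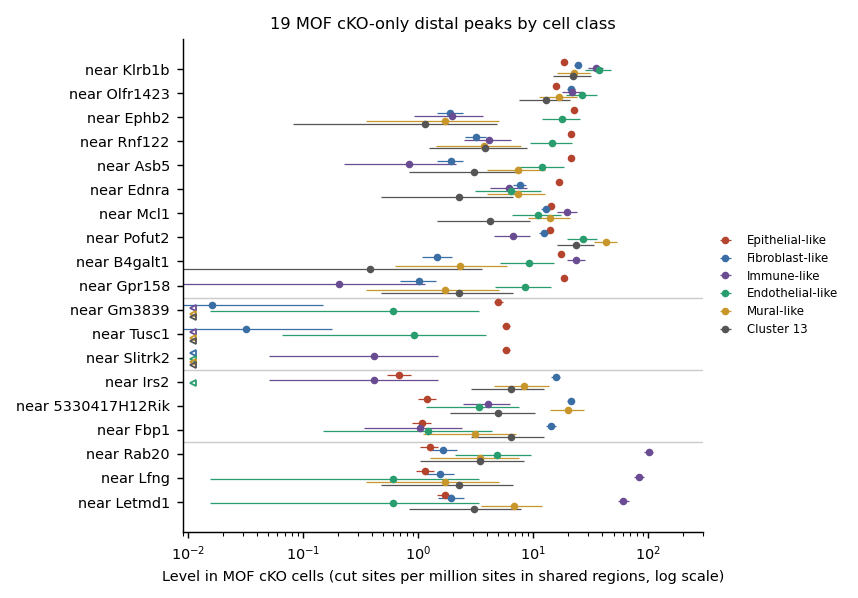
Points give the level of 19 MOF cKO-only distal peaks in each cell class of the MOF cKO library, in CPM (cuts scaled to the cuts in shared regions, log axis), with 95% exact Poisson intervals; open triangles at the left edge mark classes with no cut. The upper 10 peaks have most cuts, and the lower groups of 3 have the largest share of their cuts in epithelial-like, fibroblast-like and immune-like cells, with Rab20 highest at 101.3 CPM in immune-like cells.

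Per cell, the 12428 peaks took a median of 4.06% of the cuts of an epithelial-like cell (quartiles 2.84 and 5.27), 2.78% in immune-like, 2.33% in endothelial-like, 1.51% in mural-like and 0.944% in fibroblast-like cells. Shared peaks took 44.2%, 25.1%, 30.7%, 28.7% and 34.0% in the same order, so they too had their largest share in epithelial-like cells. Epithelial-like cells of MOF cKO were not uniform. Clusters 0, 3 and 6 held 1305, 721 and 505 MOF cKO cells and almost no Control cells, and the median share was 4.46%, 4.80% and 2.01%. The share in shared peaks was 45.1%, 43.4% and 43.7% in the same clusters. None of the 3 could be named as basal, suprabasal or hair follicle from its markers. Another 44 MOF cKO epithelial-like cells fell into clusters made up mostly of Control cells. In these cells the median share was 1.17%, with a highest value of 1.87%, against 4.10% in the other 2531. Since the peaks were chosen for having no Control peak, a low share in cells that group with Control cells follows from the rule and is no finding. Fibroblast-like clusters 1, 4 and 7 had medians of 1.14%, 0.825% and 0.644%.

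**Figure D3:**
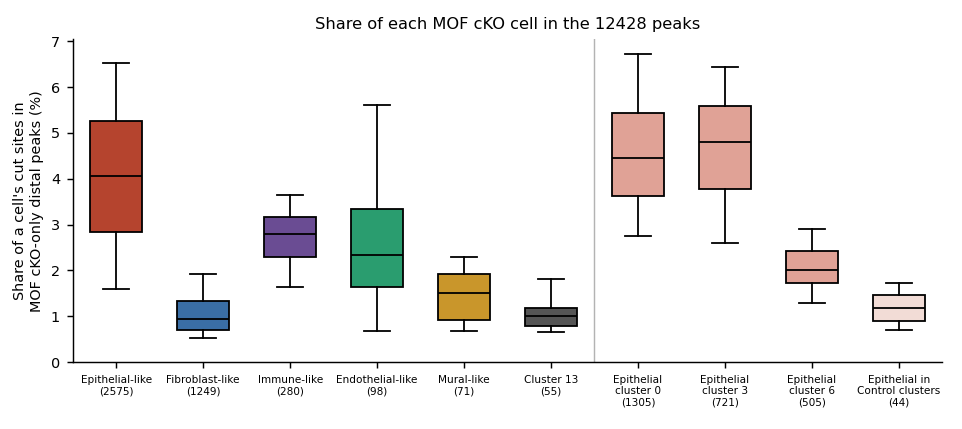
Boxes give the share of a MOF cKO cell's cuts that fell in the 12428 MOF cKO-only distal peaks (percent, vertical axis), by cell class and, to the right of the line, by epithelial-like cluster, with the median, quartiles and whiskers at the 5th and 95th percentiles. Epithelial-like clusters 0 and 3 have medians of 4.46% and 4.80%, cluster 6 has 2.01%, and the 44 epithelial-like cells in Control clusters have 1.17%.

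Clusters 0 and 3 gave more of the summed cuts than cluster 6, with more cells and a median of 97416 and 83108 cuts per cell against 70841, so the minimum of 500 cuts favours peaks open in them. The level of single peaks was highest in cluster 0 at 5930 peaks (47.7%), in cluster 3 at 6072 (48.9%) and in cluster 6 at 426 (3.43%). Shared peaks were spread more evenly, at 28.3%, 37.6% and 34.1%. The median level was 3.52, 3.602 and 1.45 CPM in clusters 0, 3 and 6, whereas shared peaks had 3.96, 3.91 and 3.74 CPM. The highest and lowest of the 3 clusters differed at least 2-fold at 9921 peaks (79.8%), against 46.3% of all MOF cKO peaks with 20 or more cuts, 57.8% of the weaker MOF cKO-only distal peaks and 38.5% of shared peaks. An AP-1 site was present in 72.4% of the peaks highest in cluster 0, 76.3% of those highest in cluster 3 and 42.7% of those highest in cluster 6. In shared peaks the shares were 53.6%, 45.8% and 21.6%, also lowest in cluster 6.

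To set the lower depth of Control beside the rule, the cuts that Control would hold at equal levels were computed from each class's MOF cKO level and Control depth. The median was 407 cuts per peak (quartiles 328 and 561) and the lowest was 148. The 196012 distal peaks that were called in Control had a median of 223 cuts, with 97 at the 10th and 55 at the 1st percentile. Since the expected counts are the MOF cKO cuts rescaled, the minimum of 500 cuts largely fixes how high they are, and no statement on depth rests on them. The 123 with an expected count below the Control median were all highest in immune-like cells. Control accessibility was not measured here, and the part of depth in the missing Control calls was not tested.

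Many of the peaks bordered on Control peaks. The median distance to the nearest Control peak was 1.95 kb, with 566 peaks (4.55%) within 100 bp, 3795 (30.5%) more than 100 and up to 1000 bp away, 5942 (47.8%) more than 1000 and up to 10000 bp away and 2125 (17.1%) farther away. Peaks farther from a Control peak were more often epithelial. Epithelial-like cells led at 58.3%, 58.5%, 67.8% and 85.8% of the peaks in these 4 ranges, and the median epithelial-like to fibroblast-like ratio was 4.77, 5.39, 7.72 and 13.9. Immune-like cells led at 12.7%, 17.7%, 13.99% and 2.96%. AP-1 sites were found in 63.1%, 68.1%, 74.8% and 80.9%. The median cuts of the ranges were similar (784, 733, 713 and 740). Weaker MOF cKO-only distal peaks lay a median of 2.86 kb from a Control peak. Of these, 24.3% were within 1 kb, against 35.1% of the 12428 peaks, and 19.5% were more than 10 kb away, against 17.1%. The shares by distance were not computed for another set, so they are not shown to be particular to these peaks.

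By position, 5239 peaks (42.2%) lay in introns of protein-coding genes, 6005 (48.3%) between genes, 770 (6.20%) within other genes outside their exons and 414 (3.33%) on exons, and shared peaks were alike with 47.0% between genes. The nearest TSS was a median of 16.2 kb away (13.7 kb for shared peaks), and 850 peaks (6.84%) were more than 100 kb from any (4.16%). The share of distal peaks with 500 or more cuts that had no Control counterpart ran from 10.2% on chromosome 11 to 14.8% on chromosome 14 among the autosomes, and was 16.1% on X (280 of 1743) and 0 of 11 on Y. A total of 4063 peaks (32.7%) lay in 1771 groups with gaps of at most 20 kb, and 25 groups held 5 or more. The largest had 7 peaks each. One, at chr8:54419345-54451461, spans 32.1 kb near Asb5 and begins with the Asb5 peak printed above. The other, at chr9:57942476-57989868, spans 47.4 kb near Cyp11a1, which encodes a steroid-producing enzyme, and Sema7a, a semaphorin gene.

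AP-1 was the motif with the largest difference from shared peaks in percentage points, and sequence took no part in choosing the 12428 peaks. TGANTCA was found in the central 500 bp of 9107 of 12428 peaks (73.3%), against 39.8% of shared peaks, 48.4% of weaker MOF cKO-only distal peaks and 38.7% of all 274392 distal MOF cKO peaks. The motif is its own reverse complement, so 1 search covers both strands. At least 2 sites were present in 2753 peaks (22.2%) and in 8.08% of shared peaks. The sites gathered at the middle, with 42.0% of peaks and 18.997% of shared peaks holding one within 50 bp of the centre. The gap was present at every peak strength. Of the peaks with fewer than 600 cuts 68.5% had a site, against 29.1% of shared peaks of that strength, and of those with 2000 or more cuts 316 of 395 did, against 55.4% of shared peaks.

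The difference was present whichever cell class led. Outside epithelial-like and immune-like cells, few leads had an interval above all others. These were 87 peaks for endothelial-like, 96 for mural-like, 64 for cluster 13 and 61 for fibroblast-like cells. Epithelial-like cells gave a median of 93.7% of a peak's cuts, so the shares below do not describe the other classes by themselves. An AP-1 site was found in 75.7% of peaks led by epithelial-like cells (47.4% of shared peaks led by them), 70.0% for immune-like (43.9%), 74.0% for endothelial-like (41.5%), 65.8% for mural-like (30.4%), 63.1% for cluster 13 (25.5%) and 55.1% for fibroblast-like cells (29.0%). Taken the other way, distal peaks with 500 or more cuts lacked a Control counterpart in 6.04% of cases with no AP-1 site, 18.96% with 1 site, 27.7% with 2 and 32.4% with 3 or more. Within the 12428 peaks, the epithelial-like to fibroblast-like ratio had a median of 6.59 without a site, 7.57 with 1, 8.34 with 2 and 10.5 with 3 or more. The same order was seen in shared peaks, at 1.53, 4.13, 5.05 and 6.17, so it is not particular to the set, and the median cuts of the 12428 peaks also went up with the number of sites, from 684 to 907.

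**Figure D4:**
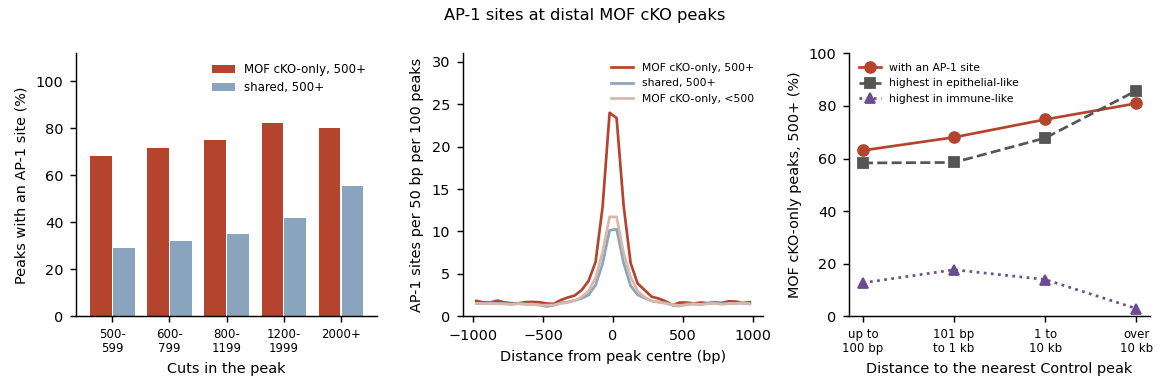
Left, percent of peaks with an AP-1 site (TGANTCA, central 500 bp) by cuts in the peak; middle, AP-1 sites per 100 peaks in 50 bp bins by distance from the peak centre (bp); right, percent of MOF cKO-only peaks with an AP-1 site, led by epithelial-like cells or led by immune-like cells, by distance to the nearest Control peak. MOF cKO-only peaks lie above shared peaks in every range of cuts (68.5% against 29.1% in the weakest), and their AP-1 share goes from 63.1% within 100 bp of a Control peak to 80.9% beyond 10000 bp.

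Other motifs differed by far less in percentage points. As a ratio of shares, the lower SP/KLF and CTCF core shares differed more from shared peaks than that of AP-1. Each motif was searched on both strands of the central 500 bp. Shares are given for the 12428 peaks, shared peaks and all distal MOF cKO peaks in this order. Next to AP-1, the largest excess in percentage points was that of the nuclear receptor motif AGGTCA (26.1%, 24.0% and 25.2%), followed by the E-box CAGGTG (33.4%, 32.3% and 29.9%), PU.1 GAGGAAGT (5.04%, 4.08% and 4.47%) and the GATA motif AGATAAG (8.63%, 7.72% and 7.82%). PU.1 was most common where immune-like cells led, in 10.9% of the peaks and 10.0% of shared peaks. Lower shares were found for the E-box CAGCTG (21.4%, 29.4% and 26.7%), NFI TTGGCA (23.9%, 29.9% and 28.2%), TFAP2 GCCNNNGGC (9.97%, 15.1% and 12.4%), the CTCF core AGGGGGC (4.25%, 8.47% and 6.25%) and SP/KLF GGGCGGG (3.02%, 7.01% and 4.77%). The p53/p63 motif was found in 5.82%, 6.08% and 5.88%, TEAD ACATTCC in 9.46%, 10.8% and 10.1%, and RFX GTTGCCA in 5.16%, 6.51% and 6.12%. The other motifs searched were CRE TGACGTCA, GRHL AACNGGTT, C/EBP TTGCNNAA, RUNX TGTGGTT, ETS CCGGAAGT, KLF4 GGGTGTGG, SOX ACAATGG, FOX TGTTTAC, homeobox TAATTA, TCF/LEF TTCAAAG, the E-box CACGTG, MITF TCACGTGA, IRF GAAANTGAA, NF-kB GGGNNTTCC, the steroid receptor motif ACANNNTGT, STAT TTCNNNGAA, HSF GAANNTTC, SMAD GTCTAGAC and POU ATGCAAAT. Their shares lay between 1.55 percentage points below and 0.86 points above those of shared peaks. The E-box CACGTG lies within the MITF motif. Base composition moved with these shares. Median GC was 44.2% (quartiles 40.6 and 48.2) against 46.6% in shared peaks, and several motifs with lower shares are rich in G and C. A median of 12.8% of the bases were annotated repeats (10.8% in shared peaks).

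Regions open in both libraries allow a comparison of genotypes beside the peaks. Of the Control epithelial-like cells, 322 were in cluster 8, which was shallow (median 2611 cuts). Another 97 were in cluster 11, which had the fibroblast marker Col3a1 among its leading genes within the epithelial-like class. These clusters held 11 and 5 MOF cKO cells, and medians without them are given at the end. In epithelial-like cells, shared distal regions within 10 kb of 1 of the 12428 peaks had a median log2(MOF cKO/Control) of 0.00, where the median of all was −0.09, and upper quartiles of 0.90 and 0.67. Of these neighbours, 5550 of 24159 (23.0%) were at least 2-fold higher in MOF cKO, against 18.8% of all shared distal regions. The share was 18.7% from 10 to 100 kb and 16.9% beyond 100 kb. In fibroblast-like cells it was 3059 of 22674 (13.5%), against 12.0% of all. The latter share was near its background. In epithelial-like cells 12.1% of the neighbours were at least 2-fold lower, against 13.7% of all.

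Promoters of the nearest genes moved little. The 12428 peaks had 5863 nearest protein-coding genes, of which 3178 had 1 peak, 1475 had 3 or more and 62 had 10 or more. The median change of all 16163 promoters in epithelial-like cells was −0.41 on the log2 scale (−0.03 in fibroblast-like cells), and changes below are relative to the median of all promoters in the same class. The median was 0.04 for the 5156 nearest genes whose promoter had a value, and 0.10 for genes nearest to at least 3 peaks, 0.12 for those nearest to at least 5 and −0.02 for those nearest to none. On this relative scale 277 of the 5156 (5.37%) were at least 2-fold higher in MOF cKO, against a background of 4.48% and 4.06% of genes nearest to none. The share was 5.08% for genes nearest to at least 3 peaks and 3.85% for those nearest to at least 5, so it did not follow the medians. Before the shift was removed, 133 of the 5156 (2.58%) were, against a background of 2.30%. Among fibroblast-like cells the counts were 86 of 5129 (1.68%) on the relative scale, against a background of 1.89%, and 79 of 5129 (1.54%) before the shift was removed, against a background of 1.78%. The promoter of Kat8 itself had no nearest peak in the set and a change of −0.01 in epithelial-like cells (−0.08 to 0.06). Promoter accessibility is no check of the deletion itself.

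The genes with most peaks were often very long. Rbfox1, which encodes a splicing factor and spans 1526 kb, had 19 peaks, of which 15 were highest in epithelial-like cells and 16 had an AP-1 site. The synaptic scaffold gene Dlg2 had 17 over 1973 kb, Anks1b 16 over 1100 kb and Auts2 15 over 1106 kb. Tbl1xr1, a transcriptional corepressor gene of 139.9 kb, had 16, Adgrl2, an adhesion receptor gene, 16, and Efna5, an ephrin gene, 15. Zmiz1 had 15, and Zfp608, Atp2b1, Cntnap5b and Btbd3 had 13 each. Short genes among the top 15 were Trib1, a pseudokinase gene of 8.75 kb with 14 peaks, 1700015G11Rik (4.05 kb, 13 peaks) and Olfm4 (39.1 kb), where all 13 peaks were highest in epithelial-like cells. Of the 15 genes, 13 had a promoter value. The relative change in epithelial-like cells was highest at Rbfox1 (0.63, 0.28 to 0.98) and Cntnap5b (0.62, 0.46 to 0.79) and lowest at Tbl1xr1 (−0.26, −0.33 to −0.19). In fibroblast-like cells these 3 genes had 0.17 (−0.24 to 0.59), 0.70 (0.38 to 1.02) and −0.32 (−0.44 to −0.20).

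Of 42 stress and wound genes of keratinocytes, 27 (64.3%) were nearest to at least 1 of the peaks, against 26.8% of all protein-coding genes, and they had 49 peaks. The lists were chosen with earlier results of these data known, so the values of this list are a description. Lists of fate factor, p53 target and AP-1 factor genes had shares of 68.0%, 55.0% and 52.9%. The share nearest to shared peaks was not computed. Tnc, an extracellular matrix gene of wounds, had 7, the cytokine gene Tslp 4, Plau, which encodes urokinase, 3 and the cytokine gene Lif 3. In epithelial-like cells 36 of 37 promoters with a value lay above the median of all promoters (median 0.82). Relative to that median 15 of the 37 were at least 2-fold higher, against 4.48% of all promoters, and before the shift was removed 13 were, against 2.30%. The relative change at Tnc was 0.46 (0.37 to 0.54), from 27.8 CPM in Control to 28.8 in MOF cKO, and at Tslp 0.49 (0.34 to 0.64). In fibroblast-like cells it was 0.70 (0.56 to 0.84) at Tnc and −0.14 (−0.31 to 0.04) at Tslp. Larger differences stood at listed genes with few peaks or none. Krt16, a keratin of wounded epidermis with 1 peak, went from 12.7 to 40.9 CPM (relative change 2.09, 1.98 to 2.21), and Il1rn, an interleukin 1 antagonist gene with 2 peaks, from 6.06 to 19.01 CPM (2.06, 1.89 to 2.22). Krt6a, the partner keratin, had no peak and a relative change of 2.46 (2.22 to 2.71). These 3 genes were chosen after their values were seen. The median was 0.67 over the 26 listed genes with a peak and a value and 1.31 over the 11 with a value and no peak. In fibroblast-like cells the median of the list was 0.35, with 27 of 35 promoters above the median of all and 7 at least 2-fold higher, against 1.89% of all promoters.

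Of 17 AP-1 factor genes, 9 (52.9%) were nearest to 24 peaks, led by Bach2 with 7, Bach1 and Jun with 4 each and Fosl2 with 3. The list is wider than the FOS and JUN families and also holds Bach and Maf genes, among others. Fos, Jund and Atf3 were nearest to no peak. Of the promoters, 4 of 17 lay above the median of all in epithelial-like cells (median −0.13), and 15 of 17 did in fibroblast-like cells (0.07). Jun went from 107 to 64.9 CPM in epithelial-like cells, a relative change of −0.32 (−0.37 to −0.27). Bach1 had −0.20 (−0.28 to −0.12) and Fosl2 −0.13 (−0.18 to −0.08). Bach2, which encodes a repressor and had most peaks, was among the 4 above the median at 0.22 (0.15 to 0.29), as was Fosl1 with 1 peak at 0.47 (0.38 to 0.55), named after its value was seen. None of the 4 peaks nearest to Jun was highest in epithelial-like cells.

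Fate factors of the epidermis and hair follicle were also often nearest to a peak, 17 of 25 (68.0%) with 60 peaks, and had a promoter median of 0.04. Sox9, a hair follicle stem cell factor, had 12 peaks, 8 of them highest in epithelial-like cells. Its relative change was 0.59 (0.48 to 0.69) in epithelial-like cells and about the same, 0.57 (0.43 to 0.71), in fibroblast-like cells. Gata3 had 8 peaks (0.08), Klf4 6 (−0.08) and Tfap2c 4 (0.03). None of the 25 promoters was at least 2-fold apart from the median change in epithelial-like cells. Trp63, the p63 gene, named after its values were seen, had 12.54 CPM in MOF cKO against 26.3 in Control, a relative change of −0.66 (−0.77 to −0.55), with −0.93 (−1.33 to −0.53) in fibroblast-like cells. The 4 peaks nearest to it were all highest in epithelial-like cells. Of 20 p53 target genes, 11 (55.0%) had 20 peaks (promoter median 0.12). Plk2 had 5 (0.15), Eda2r 4 (0.92, 0.79 to 1.05), Fas 2 (0.34) and Pmaip1 2 (0.05).

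Epidermal differentiation genes were nearest to a peak less often than the lists above, but not less often than all genes. Of 34, 11 (32.4%) were nearest to 16 peaks, against 26.8% of all protein-coding genes, with a promoter median of 0.04. These differences were not tested. The lipid transporter gene Abca12 had 3 (−0.48), Elovl4 2 (0.27), Tchh 2 and Casp14 2 (0.11). Relative to all promoters, 4 of 23 promoters with a value, those of Ivl, Sbsn, Tgm3 and Klk5, were at least 2-fold higher (1.76, 1.46, 1.46 and 1.28), against 4.48% of all promoters, and Tgm5 was at least 2-fold lower (−1.32). Before the shift was removed 3 were higher (Ivl, Sbsn and Tgm3) and 3 lower (Tgm5, Krt77 and Dsg1a), against 2.30% of all promoters in each direction. These genes were named after their values were seen. The share of all promoters at least 2-fold lower on the relative scale was not computed.

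Immune cell genes were nearest to a peak about as often as all genes, 8 of 30 (26.7%) with 19 peaks. Cd83 and Runx1 had 5 each, Ptprc 3 and Laptm5 2. Of their promoters, 19 of 23 lay above the median of all in epithelial-like cells (median 0.47, or 0.058 before the shift was removed), and 19 of 23 did in fibroblast-like cells (median 0.26). Laptm5 went from 3.44 to 9.78 CPM (relative change 1.92, 1.70 to 2.14), and Csf1r, Itgax, Csf2rb and Cd68, named after their values were seen, were also at least 2-fold higher on the relative scale (2.09, 2.66, 1.60 and 1.12), which makes 5 of 23 against 4.48% of all promoters. Ptprc, the pan-leukocyte gene, had 0.926 CPM in Control and 1.18 in MOF cKO (0.76, 0.29 to 1.25). Immune-like cells were 46 in Control and 280 in MOF cKO, and the part of immune cell DNA in the epithelial-like values, including those of the stress genes, was not tested.

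**Figure D5:**
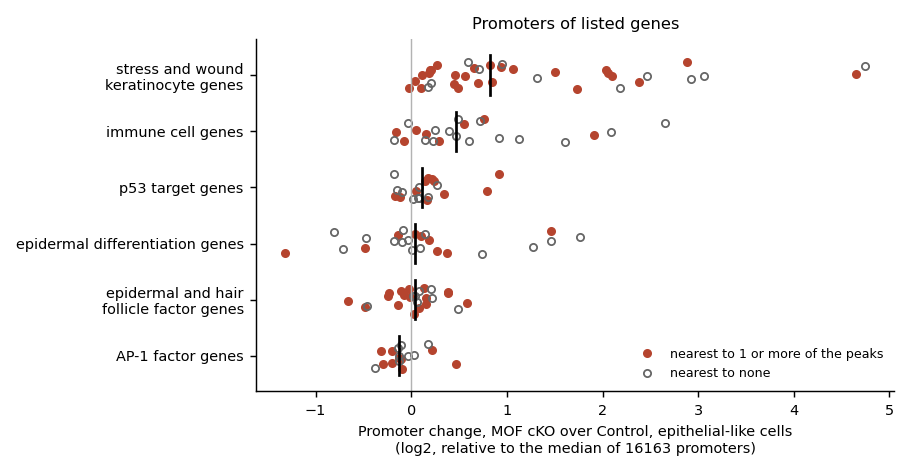
Each point is the promoter of 1 listed gene in epithelial-like cells, placed by its log2(MOF cKO/Control) relative to the median of 16163 promoters (horizontal axis), filled where the gene is nearest to at least 1 MOF cKO-only distal peak and open where it is nearest to none; black bars mark the medians of the lists. Stress and wound genes lie to the right of 0 in 36 of 37 cases, and AP-1 factor genes in 4 of 17.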

How the data were processed

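Cut counts per peak and cell barcode were deposited for each library. The authors made them with cellranger-atac 2.0.0 on mm10 (GRCm38), calling peaks and cells in each library separately, with no normalization. In MOF cKO 91.6% of the counts were even, as both ends of a fragment mostly fall in 1 peak, so intervals were computed on cuts divided by 2.

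Start sites came from GENCODE for this build. Barcodes with at least 1000 cuts (2481 Control, 4348 MOF cKO) were clustered on 50000 shared regions, using 29 of 30 singular vectors, 20 nearest neighbours and the Leiden method. A class needed 3 markers 2-fold above other classes and 50 MOF cKO cells. No doublets were removed in the values reported, and an alternative left out the cells above the 95th percentile of a simulated doublet score. The genotype comparison used shared regions or promoters (within 500 bp of a start site) with at least 20 cuts, scaled to cuts in shared regions. The nearest gene is the protein-coding gene with the closest start site.

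Python 3.11.15, numpy 2.4.6, scipy 1.17.1, pandas 2.3.3, scikit-learn 1.9.0, igraph 0.11.9, leidenalg 0.10.2 and matplotlib 3.10.9 were used, and calculations were tested on simulated data. The peaks and gene lists were chosen with earlier results of these data known. Named peaks were the 10 with most cuts, the 3 with the largest share of cuts in each of 3 classes among those with at least 1000 cuts, and 3 on each side of the threshold. Named genes were the 15 with most peaks and the 4 with most in each list.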

Additional observations from a re-analysis of the deposited data

Results flagged for a closer look

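At 3 of the 35 named genes with a promoter value in both classes, the change lay on opposite sides of the median of all promoters in the epithelial-like and the fibroblast-like class, with both counting intervals clear of that median. The difference between the classes was not tested, since there was 1 library per genotype. At Anks1b the log2 change relative to all promoters was 0.20 for epithelial-like and −0.26 for fibroblast-like cells, a difference of 0.45. At Jun it was −0.32 and 0.13, a difference of −0.44. At Gata3 it was 0.08 and −0.23, a difference of 0.31. Before the shift of all promoters was removed, the signs were the same at Anks1b (−0.21 and −0.29) and Gata3 (−0.33 and −0.26). The intervals of the 2 classes then overlapped at both Anks1b and Gata3. The opposite sides at these genes thus depend on the median taken off in each class. Only Jun had opposite signs without it (−0.72 and 0.10).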

How the results depend on the processing

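No paired analysis was possible because each genotype had 1 library, and for the same reason no replicate could be left out. A minimum of 1000 cuts left 3106 peaks and one of 250 gave 38266, while a distance of over 1 kb from any Control peak left 8067. Under these 3 rules, and with a distance of over 5 kb from any start site, epithelial-like cells led at 76.6%, 54.3%, 72.5% and 70.2%, immune-like cells led at 9.72%, 16.8%, 11.1% and 11.5%, 90.5%, 72.3%, 88.4% and 85.1% were 2-fold above fibroblast-like cells, and the median epithelial-like share of cuts was 95.3%, 90.2%, 94.6% and 94.1%. An AP-1 site was present in 80.1%, 63.9% and 76.4% under the first 3 rules. Median GC was 43.4% beyond 1 kb from a Control peak and 43.8% beyond 5 kb from a start site.

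Scaling to all MOF cKO peaks gave 66.7% led by epithelial-like cells and 83.0% past 2-fold. Means per cell without scaling gave 82.5%, 8.09% led by immune-like cells and 90.3% past 2-fold. Leiden resolutions of 0.5 and 2 gave 76.4% and 73.5% for epithelial-like cells, 14.7% and 13.98% for immune-like cells, and epithelial-like shares of cuts of 94.2% in both. At 0.5 neither an endothelial-like nor a mural-like class was named. A cluster without a name held 96 MOF cKO cells, where these classes held 98 and 71 in the main clustering. By the class sizes, the others were mostly classed as epithelial-like. At 2 the endothelial-like cluster held 27 MOF cKO cells, against 98 in the main clustering, and was not used. Fewer classes were thus compared. Without the highest doublet scores that share was 93.5%. AP-1 sites were in 67.1% of central 300 bp windows (33.8% of shared peaks) and 77.2% of whole peaks (46.6%), and TGACTCA alone, chosen after seeing the data, was in 62.3% (31.6%). GC of whole peaks was 43.7%.

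The median log2 change of neighbouring distal regions was 0.023 within 5 kb, −0.058 within 50 kb, −0.14 when scaled to all own peaks, 0.15 with median-of-ratios factors, 0.027 with at least 100 cuts and 0.13 without epithelial-like clusters 8 and 11, which was chosen after seeing the data. Its sign thus depends on the scaling and the distance. Clusters 8 and 11 were almost all Control cells, and without them the median of all shared distal regions went from −0.09 to 0.06. The difference from all distal regions stayed between 0.03 and 0.11 in these settings. For promoters of nearest genes the median before the shift of all promoters was removed, −0.37 where the report gives 0.04 relative to all, was −0.30 for at least 3 peaks, −0.51 with all own peaks, −0.22 with median-of-ratios factors, −0.38 with a 100 bp window, and, in 2 settings chosen after seeing the data, −0.38 without the highest doublet scores and −0.35 without clusters 8 and 11. The difference from all promoters stayed between 0.04 and 0.10.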
